A study of Mus musculus with 12 samples.

Results

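The levels of 9 genes of bone formation were followed in RNA of cells labelled as bone endothelial cells (BECs): Runx2, Sp7, Alpl, Phex, Bglap, Bglap2, Ibsp, Dmp1 and Ifitm5. They were listed by symbol, not by a threshold on their values, but they were chosen with earlier results of these data known. All 9 were found by Ensembl gene ID among the 37620 genes of the count table. The mice were labelled as c57/Bl6 (C57BL/6J in the methods of the study), female or male and 2 or 65 weeks old, with no treatment named in the labels, and their BECs were sorted on endomucin, a sialoglycoprotein of the capillary surface, and lysed at once. The tissue is labelled as tibia. Each combination of sex and age had 3 libraries, 12 in all, sequenced with paired reads of 100 nucleotides. Per the methods of the study, libraries were made from the samples of best RNA quality in each set. No label says that the libraries of a group came from separate mice, so the p-values measure the spread between these libraries, which may be technical.

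Osteoblasts build bone by secreting a collagen matrix that is then mineralised. RUNX2 commits progenitors to the lineage and SP7 (osterix) acts downstream of it, while alkaline phosphatase removes pyrophosphate, an inhibitor of mineral growth, and acidic or calcium-binding proteins such as osteocalcin, bone sialoprotein and DMP1 enter the matrix. In growing long bones osteoblast progenitors lie close to endomucin-rich capillaries, but osteoblasts are not endothelial cells.

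Promoters of members are shown here because the RUNX family, to which the member Runx2 belongs, binds the letters ACCACA. All 9 members moved in the same direction between the ages, by very different amounts. Whether RUNX proteins had a part in this was not tested. Of the 9 members, 7 had an entry in the RefSeq promoter table (GRCm38.p6), with 9 windows of 250 bases before a transcription start, and Sp7 and Bglap2 had none. ACCACA, searched on both strands (TGTGGT on the other), was found in 3 of the 9 windows, 1 each of Runx2, Bglap and Dmp1, against 14.0% of all 32851 windows of the same length. The letters stood 132 bases before the Bglap start, 164 bases before a Dmp1 start and 80 bases before the Runx2 start. Not all of this sequence is upstream of every transcript: 5 of the 9 windows, of Runx2, Phex, Ibsp, Dmp1 and Ifitm5, hold stretches that are part of a GENCODE transcript of the gene, and the Runx2 match lies in one, whereas those of Bglap and Dmp1 do not. The windows of Bglap (chr3:88384467-88384716, minus strand) and Dmp1 (chr5:104202367-104202616, plus strand) are printed 5′ to 3′ with the match in capitals, and for Runx2 (window chr17:44814628-44814877, minus strand) the 30 bases around the match.
Bglap: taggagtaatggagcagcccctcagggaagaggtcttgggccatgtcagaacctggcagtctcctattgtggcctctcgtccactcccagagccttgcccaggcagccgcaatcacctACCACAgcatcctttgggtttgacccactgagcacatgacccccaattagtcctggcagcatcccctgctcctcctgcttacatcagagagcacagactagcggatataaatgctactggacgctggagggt
Dmp1: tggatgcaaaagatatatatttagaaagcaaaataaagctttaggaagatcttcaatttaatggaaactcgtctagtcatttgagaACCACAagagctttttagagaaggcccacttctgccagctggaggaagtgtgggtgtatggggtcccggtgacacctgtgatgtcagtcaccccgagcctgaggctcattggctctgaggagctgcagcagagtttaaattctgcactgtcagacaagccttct
Runx2: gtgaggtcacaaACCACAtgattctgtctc
TAATTA, the core letters of homeodomain proteins such as the DLX factors, was in 0 of the 9 windows and in 4.8% of all windows. GGGCGG, the GC box of the SP family (CCGCCC on the other strand), was in 2 windows, 1 of Alpl and that of Ifitm5, and in 32.7% of all windows. A match is a run of letters, and binding was not measured.

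Total counts per library were 35012947 to 38289171 (2-week females), 36335541 to 44569600 (2-week males), 29049031 to 34088694 (65-week females) and 26044743 to 27323682 (65-week males). Levels are given as CPM (counts per 1000000 counts of the library). A count of 3, taken as the floor, was worth 0.0673 to 0.115 CPM and covers counting error only. No pair of libraries in a group agreed within sampling noise (chi-square per degree of freedom 26.63 to 102.52). Replicate 3 of the 65-week males held 117 counts of Xist, the transcript of the inactive X chromosome, against 3 and 0 in the other libraries of its group, 0 in the 2-week males and 3328 to 7069 in the females. The labelled cell type was compared with 15 endothelial markers, none of them at 0 in every library of a group. At 2 weeks their summed level was 5025 ± 1295 CPM (females) and 6161 ± 679 CPM (males) against 370 ± 44.2 and 316 ± 18.8 CPM at 65 weeks (SD, n = 3 each), so the markers that define the sorted cells were themselves lower in the older libraries.

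The first comparison asked how the 9 genes differ between the bulk libraries of 65-week and 2-week mice of the same sex. All 9 members were lower at 65 weeks in both sexes, and they did so by very different amounts. Bglap, Bglap2, Dmp1, Sp7, Alpl and Ifitm5 fell 22.1- to 190-fold in females and 21.3- to 132-fold in males. Runx2, Phex and Ibsp fell 1.47- to 2.06-fold in females and 1.84- to 2.83-fold in males. The 95% intervals of these 3 genes spanned log2 fold changes of -1.53 to -0.30 in females and -1.87 to -0.49 in males. Those of the other 6 lay apart from them, at -8.29 to -3.62 in females and -8.15 to -2.67 in males. The genes were divided by the size of these same falls, so the gap describes the division and does not test it. The intervals are those of edgeR, and their width depended on the method for some genes of few reads. In females the standard errors of Bglap2, Dmp1 and Sp7 were 0.549, 0.497 and 0.432 by edgeR but 1.26, 1.2 and 0.717 by DESeq2. In males they were closer, at 0.442, 0.306 and 0.183 by edgeR and 0.437, 0.325 and 0.242 by DESeq2.

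The members called lower by edgeR's quasi-likelihood test (adjusted p under 0.05) were 9 of 9 in each sex, where 59.7% of 15120 genes tested in females and 55.5% of 14959 in males were called, 29.5% and 28.5% as lower. In CPM every 2-week library was above every 65-week library for 9 of 9 members in each sex, and the same held for 41.6% of tested genes in females and 39.4% in males. The median log2 fold change of the members was -4.98 in females and -4.94 in males, with a median over all tested genes of 0.0056 and 0.0080. Passing the filter on low counts does not support these falls, because 5 members in females (Sp7, Bglap, Bglap2, Dmp1, Ifitm5) and 3 in males (Bglap, Bglap2, Ifitm5) reached the minimum in fewer than all 3 libraries at 65 weeks and so entered the test through the 2-week group. In bulk RNA of sorted cells, fewer cells of a type and less RNA per cell cannot be told apart. All 9 were also called in males without the library that held Xist counts, where 9564 of all genes were called in either direction.

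**Figure D1:**
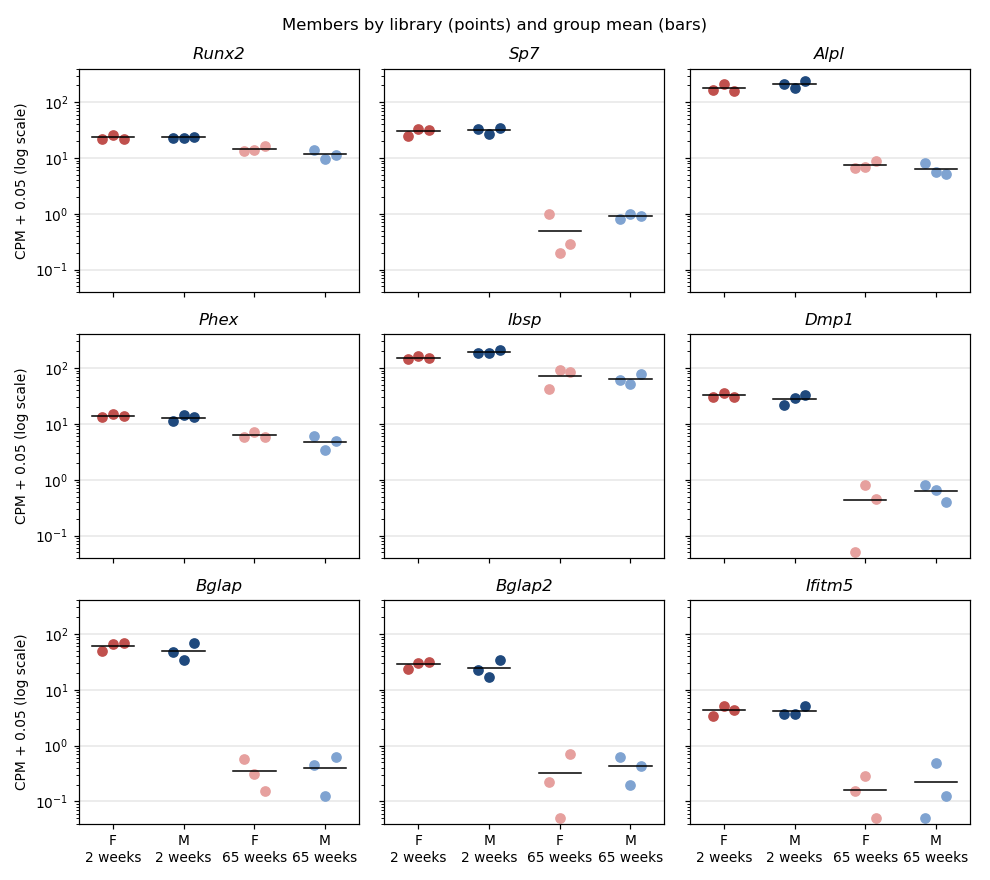
CPM plus 0.05 (log axis) of each member in each of the 12 libraries (points, replicates 1 to 3 from left to right) with the group mean (bar), for females (F) and males (M) at 2 and 65 weeks. In every panel the 6 points of 2 weeks lie above the 6 points of 65 weeks, by little for Runx2, Phex and Ibsp and by far more for the other 6.

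Runx2 (ENSMUSG00000039153, GRCm39 chr17:44806874-45125684, minus strand) encodes the transcription factor without which no osteoblasts form. It was measured at 22.1, 26.1 and 22.3 CPM in the 2-week libraries of females and 23.0, 23.0 and 23.8 CPM in those of males. The 65-week libraries had it at 13.4, 14.1 and 16.1 CPM in females and at 14.1, 9.59 and 11.1 CPM in males. The levels at 2 weeks were tight and alike in the sexes, and the older libraries kept 61.8% of the mean in females and 49.9% in males. In females the log2 fold change by edgeR was -0.56 (SE 0.112, adjusted p = 0.00306), and in males it was -0.88 (SE 0.168, adjusted p = 0.00311). Supt3 overlaps Runx2 on the opposite strand, and the sources used here do not say whether strand was used in counting. Supt3 was at 10.7 ± 0.766 and 10.4 ± 0.927 CPM in 2- and 65-week females and at 11.4 ± 0.750 and 9.92 ± 0.889 CPM in males (SD, n = 3), with edgeR adjusted p = 0.512 and 0.583 for age.

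Sp7 (ENSMUSG00000060284, chr15:102265038-102279370, minus strand), the zinc finger factor needed after RUNX2, behaved otherwise. It was at 25.1, 33.1 and 31.4 CPM in the 2-week libraries of females and 33.3, 26.4 and 33.9 CPM in those of males. At 65 weeks 0.929, 0.147 and 0.239 CPM were left in females (27, 5 and 7 counts) and 0.769, 0.963 and 0.883 CPM in males. Replicate 1 of the older females lay close to the males and the other libraries of its group lay well under them. Tested by edgeR, the log2 fold change of females was -5.99 (SE 0.432, adjusted p = 1.5e-05) and that of males -5.04 (SE 0.183, adjusted p = 1.32e-06). Without replicate 1 of the 65-week females the female value was -7.14. Sp7 had more reads than Runx2 in all 6 libraries of 2 weeks, and Runx2 had more than Sp7 in all 6 libraries of 65 weeks.

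Among the enzymes, Alpl (ENSMUSG00000028766, chr4:137469039-137524102, minus strand) encodes tissue-nonspecific alkaline phosphatase, the enzyme that cleaves pyrophosphate. It was at 164, 215 and 160 CPM in the 2-week libraries of females and 212, 176 and 235 CPM in those of males, with Ibsp the most abundant of the members in reads. At 65 weeks it was at 6.44, 6.78 and 8.97 CPM in females and 8.09, 5.48 and 5.11 CPM in males. No library of one age came near the other age, and 4.11% of the female mean and 3.00% of the male mean were left. edgeR put the log2 fold change at -4.47 (SE 0.168, adjusted p = 1.74e-06) in females and -4.94 (SE 0.233, adjusted p = 3.25e-06) in males.

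Phex (ENSMUSG00000057457, chrX:155945071-156198308, minus strand) encodes a membrane endopeptidase of osteoblasts and osteocytes that limits FGF23, and its loss causes hypophosphataemic rickets. It was at 13.4, 15.1 and 13.6 CPM in the 2-week libraries of females and 11.1, 14.4 and 13.0 CPM in those of males. The 65-week libraries had it at 5.71, 7.13 and 5.73 CPM in females and 6.002, 3.33 and 4.88 CPM in males. The ages did not overlap, and 44.1% of the mean remained in females and 36.9% in males. In females the log2 fold change by edgeR was -1.04 (SE 0.140, adjusted p = 0.000384), and in males it was -1.32 (SE 0.238, adjusted p = 0.00237).

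Bglap and Bglap2 are the osteocalcin genes, which encode a small vitamin K-dependent, calcium-binding protein made late in osteoblast maturation. They lie next to each other on the minus strand (Bglap, ENSMUSG00000074483, chr3:88290808-88291771, and Bglap2, ENSMUSG00000074486, chr3:88285043-88286060). Their transcripts were identical at 98.9% of 439 aligned bases, and 192 of the 341 windows of 100 nucleotides in the Bglap transcript also occur in that of Bglap2. How reads that match both genes were counted is not given in the sources used here, and whether a mate places such a read was not tested, so the split of counts between both genes is uncertain.

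Bglap was at 49.9, 66.4 and 68.8 CPM in the 2-week libraries of females and 48.2, 34.1 and 68.5 CPM in those of males. At 65 weeks 15, 9 and 3 counts were left in females (0.516, 0.264 and 0.102 CPM) and 11, 2 and 15 counts in males (0.403, 0.0741 and 0.576 CPM). In each sex 1 older library was thus at or under the floor. Tested by edgeR, the log2 fold change of females was -7.57 (SE 0.315, adjusted p = 1.86e-06) and that of males -7.04 (SE 0.477, adjusted p = 1.6e-05). Its 95% interval overlapped that of Bglap2 in both sexes. The value was -8.19 in females without replicate 1 of the 65-week females. With Bglap, Bglap2 and Bglap3 summed as 1 gene the male value was -6.30.

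Bglap2 was at 23.6, 29.96 and 31.4 CPM in the 2-week libraries of females and 23.0, 16.9 and 34.1 CPM in those of males. At 65 weeks it was at 0.172, 0 and 0.648 CPM in females and 0.586, 0.148 and 0.384 CPM in males. edgeR put the log2 fold change at -6.60 (SE 0.549, adjusted p = 2.9e-05) in females and -5.91 (SE 0.442, adjusted p = 2.5e-05) in males. The female value rested on single libraries: it was -5.97 without replicate 2 and -8.28 without replicate 3 of the 65-week females. The libraries with the highest and lowest Bglap at 2 weeks were also those with the highest and lowest Bglap2 in each sex. Bglap3, the third copy of the cluster, had means of at most 0.150 CPM in every group and was not tested for age.

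Ibsp, Dmp1 and their neighbour Mepe lie in 1 cluster of chromosome 5, which encodes acidic phosphoproteins of the mineralised matrix. Ibsp (ENSMUSG00000029306, chr5:104447037-104459338, plus strand) encodes bone sialoprotein, which binds hydroxyapatite and integrins. It was at 147, 166 and 150 CPM in the 2-week libraries of females and 186, 187 and 211 CPM in those of males. The 65-week libraries had it at 41.9, 93.5 and 84.9 CPM in females and 60.6, 51.7 and 78.5 CPM in males, so 47.6% of the female mean and 32.7% of the male mean remained. The older females spread over more than a 2-fold range, with replicate 1 well under the others. In females the log2 fold change by edgeR was -0.93 (SE 0.260, adjusted p = 0.0147), and in males it was -1.50 (SE 0.142, adjusted p = 8.44e-05).

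Dmp1 (ENSMUSG00000029307, chr5:104345340-104361974, plus strand) encodes dentin matrix protein 1, made by osteocytes, the cells that osteoblasts become inside bone. It was at 30.6, 35.7 and 30.8 CPM in the 2-week libraries of females and 21.7, 29.2 and 32.9 CPM in those of males. At 65 weeks it was at 0, 0.763 and 0.409 CPM in females and 0.769, 0.593 and 0.346 CPM in males. Tested by edgeR, the log2 fold change of females was -6.16 (SE 0.497, adjusted p = 2.52e-05) and that of males -5.48 (SE 0.306, adjusted p = 6.86e-06). Without replicate 2 of the 65-week females the female value was -7.15. Dmp1 and Ibsp, neighbours in the genome, thus differed widely, since Dmp1 kept 1.21% and 2.03% of its mean in females and males.

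Ifitm5 (ENSMUSG00000025489, chr7:140528871-140532098, minus strand) encodes BRIL, a short membrane protein of osteoblasts that is mutated in a form of osteogenesis imperfecta. It was the member with the fewest reads, at 3.32, 5.08 and 4.23 CPM in the 2-week libraries of females and 3.59, 3.57 and 5.15 CPM in those of males. At 65 weeks 3, 8 and 0 counts were left in females and 0, 12 and 2 counts in males. edgeR put the log2 fold change at -4.98 (SE 0.591, adjusted p = 0.000192) in females and -4.41 (SE 0.746, adjusted p = 0.00173) in males. Its size rested on single libraries, with -6.13 without replicate 2 of the 65-week females and -6.54 without replicate 2 of the 65-week males.

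**Figure D2:**
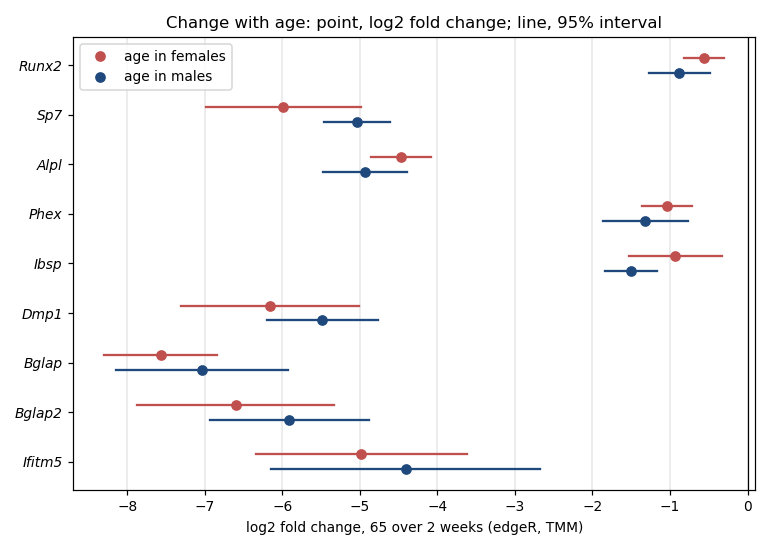
Log2 fold change of each member, 65 over 2 weeks, with its 95% interval, from edgeR with TMM scaling, in females and males (n = 3 libraries per group). All intervals lie under 0, and those of Runx2, Phex and Ibsp lie nearer to 0 than any interval of the other 6.

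The unequal falls changed the make-up of the reads of the 9 genes. Which cells gave these reads was not tested. The 9 genes together had 528 ± 58.6 CPM (females) and 577 ± 75.0 CPM (males) at 2 weeks against 103 ± 29.5 and 88.5 ± 14.96 CPM at 65 weeks (SD, n = 3), 5.13 and 6.51 times less. Ibsp gave 29.3 ± 1.30% of these reads in 2-week females and 33.9 ± 2.39% in 2-week males, but 69.7 ± 8.11% and 71.6 ± 5.36% at 65 weeks. Alpl went the other way, from 33.9 ± 2.56% and 36.0 ± 1.69% to 7.50 ± 1.91% and 7.15 ± 1.96%. Bglap gave 11.7 ± 1.55% and 8.56 ± 1.87% at 2 weeks and 0.350 ± 0.350% and 0.370 ± 0.240% at 65 weeks. Runx2 had a larger share in the older libraries, 14.9 ± 4.04% and 13.2 ± 2.27% against 4.46 ± 0.138% and 4.08 ± 0.455%, although its level fell.

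**Figure D3:**
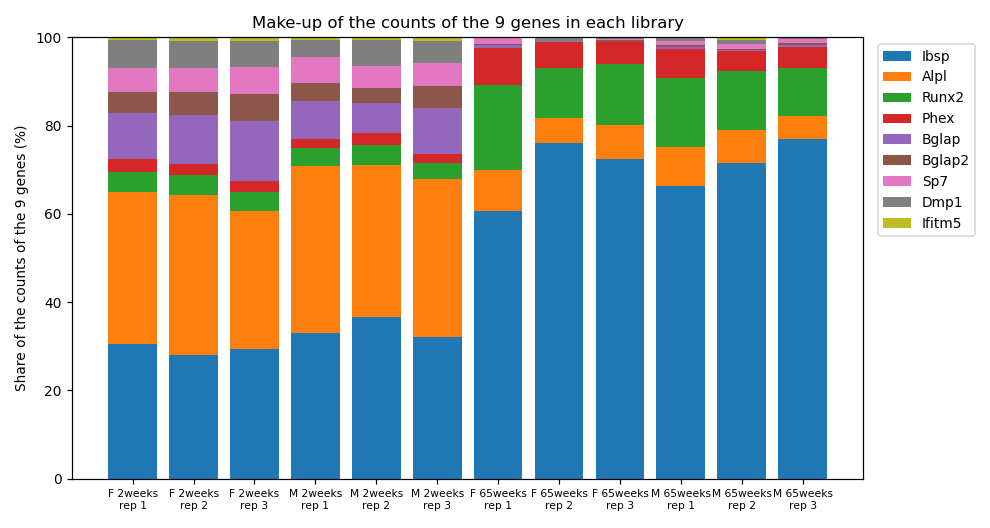
Share (%) of the counts of the 9 genes that each gene took, stacked, in each of the 12 libraries. Ibsp takes 28.0 to 36.6% in the 6 libraries of 2 weeks and 60.6 to 77.0% in the 6 libraries of 65 weeks, where Bglap, Bglap2, Dmp1 and Ifitm5 are thin lines.

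Between genes, levels were compared per kilobase of exon (CPM divided by the summed exon length in GENCODE M39). In 2-week females the order was Bglap at 99.8 CPM per kb, Ibsp at 74.5, Bglap2 at 53.9, Alpl at 34.6, Dmp1 at 10.1, Sp7 at 7.87, Runx2 at 2.66, Phex at 2.23 and Ifitm5 at 1.58, and the ranges of no 2 neighbours overlapped. The order in 2-week males put Ibsp first, at 93.9 CPM per kb (range 89.7 to 102), before Bglap at 81.3 (range 55.1 to 111), but these ranges overlapped, as did those of Bglap and Bglap2, Bglap2 and Alpl, Dmp1 and Sp7, and Phex and Ifitm5. The means of Bglap, Ibsp and Bglap2 were thus the highest in both sexes, and both transcription factors were in the lower part of the order.

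At 65 weeks Ibsp alone stood high, at 35.5 CPM per kb in females (range 20.2 to 45.1) and 30.7 in males (range 24.97 to 37.9). The next gene, Runx2, had 1.64 CPM per kb in females and 1.31 in males, and its range overlapped that of Alpl, at 1.42 and 1.20. Phex followed at 0.984 and 0.753 CPM per kb, then Bglap2 at 0.521 and 0.710, Bglap at 0.476 and 0.568, and Dmp1, Sp7 and Ifitm5 between 0.0424 and 0.230. The ranges of Alpl and Phex did not overlap in either sex, and from Phex downwards each range overlapped that of the next gene, so the lower part of the order at 65 weeks was not resolved.

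Set against the summed endothelial markers, Ibsp, Runx2 and Phex were higher at 65 weeks and the means of the other 6 were lower. Per 1000 CPM of these markers, Ibsp was at 31.9 ± 7.33 CPM (females) and 31.8 ± 3.71 CPM (males) at 2 weeks but at 198 ± 70.0 and 200 ± 31.4 at 65 weeks (SD, n = 3). Runx2 went from 4.84 ± 0.992 and 3.81 ± 0.422 to 39.8 ± 7.37 and 36.9 ± 8.13, and Phex from 2.90 ± 0.645 and 2.12 ± 0.505 to 16.7 ± 0.452 and 15 ± 4.38. These 3 genes were thus less reduced than the sum of the endothelial markers. Alpl was lower, at 36.5 ± 5.45 and 33.7 ± 3.05 against 20.3 ± 5.55 and 19.9 ± 5.90, and Bglap was lower still, at 12.9 ± 4.72 and 8.09 ± 2.41 against 0.799 ± 0.599 and 1.09 ± 0.757. The markers in the sum fell unequally. Pecam1 went from 330 ± 80.0 and 419 ± 54.8 CPM to 87.9 ± 16.5 and 41.2 ± 15.9 CPM. Cdh5 went from 590 ± 159 and 737 ± 85.7 CPM to 11.8 ± 2.50 and 12.7 ± 1.81 CPM. Cdh5 kept a smaller part of its mean than Alpl in both sexes, so the direction for Alpl does not hold against every marker. Against 8 marrow stromal markers (6766 ± 1534 and 7757 ± 679 CPM at 2 weeks, 1183 ± 181 and 1324 ± 324 CPM at 65 weeks), Ibsp was likewise higher in the older libraries, at 60.5 ± 15.4 and 48.5 ± 4.498 per 1000 CPM against 23.4 ± 4.27 and 25.2 ± 3.06, and Alpl lower, at 6.29 ± 0.9998 and 4.88 ± 1.498 against 26.9 ± 2.68 and 26.8 ± 3.65.

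Markers of other cells also moved with age. Of all tested genes 59.7% in females and 55.5% in males were called, 29.5% and 28.5% as lower and the rest as higher. Chondrocyte markers fell with the members: 12 of the 13 were tested and all 12 were called lower in both sexes, and their summed level was 325 to 593 CPM in the 2-week libraries and 5.75 to 11.2 CPM in the 65-week libraries, where Snorc was at 0 in every library. Marrow stromal markers were called lower in 8 of 8 and megakaryocyte markers in 6 of 6 in both sexes, the latter from 1489 to 2513 CPM at 2 weeks and from 117 to 324 CPM at 65 weeks. Of 10 osteoclast markers 6 were called lower and 2 higher in females and 5 lower and 1 higher in males, with sums of 2200 to 3351 CPM at 2 weeks and 907 to 1877 CPM at 65 weeks. In most lists of blood cells more genes were called higher than lower. B cell markers were called higher in 7 of 8 in both sexes (sums of 479 to 710 CPM at 2 weeks and 7258 to 18920 CPM at 65 weeks), and neutrophil markers in 7 of 8 in females and 8 of 8 in males (3925 to 6156 CPM and 11680 to 25440 CPM). Monocyte and macrophage markers were called higher in 7 and 5 of 8 (3860 to 4867 CPM and 7378 to 10130 CPM), plasma cell markers in 5 and 4 of 7 with 1 and 2 lower (310 to 439 CPM and 977 to 1604 CPM), and T and NK cell markers in 7 and 6 of 8 with 1 lower in each sex (57.7 to 81.2 CPM and 122 to 213 CPM). Erythroid markers were called higher in 1 of 8 in each sex and overlapped between the ages (28650 to 53170 CPM and 27900 to 43140 CPM). The part that these cells have in the falls of the members was not tested.

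The same comparison was made for other osteoblast-related lists, whose genes are not all particular to osteoblasts. These lists, like the members, were chosen with earlier results of these data known. Of all tested genes 59.7% in females and 55.5% in males were called, 29.5% and 28.5% as lower. Beside these lists, the endothelial markers were called lower in 15 of 15 in both sexes, with a median log2 fold change of -4.25 in females and -4.58 in males. Of 16 other bone matrix genes, 15 were tested and all 15 were called lower in both sexes, with a median log2 fold change of -5.04 in females and -4.63 in males. Sparc, which encodes osteonectin, was at 3484 ± 816 and 4264 ± 488 CPM in 2-week females and males and at 88.4 ± 10.6 and 108 ± 8.62 CPM at 65 weeks (log2 fold change -5.16 and -5.19, SE 0.188 and 0.160, edgeR adjusted p = 1.64e-06 and 9.63e-07). Col1a2, a chain of type I collagen, fell from 3141 ± 689 and 3016 ± 546 CPM to 77.8 ± 14.4 and 92.0 ± 9.15 CPM (log2 fold change -5.20 and -4.92, SE 0.208 and 0.181, edgeR adjusted p = 1.79e-06 and 1.39e-06).

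Of 10 other osteogenic transcription factors, 9 were tested, of which 7 were called lower and 1 higher in females and 6 lower and 0 higher in males (median -3.13 and -3.26). Atf4 and Cbfb were not called lower in either sex. Atf4, a factor of the stress response that also acts in osteoblasts, was at 221 ± 31.5 and 207 ± 3.25 CPM at 2 weeks and 228 ± 10.2 and 211 ± 37.2 CPM at 65 weeks (edgeR adjusted p = 0.244 and 0.424). Cbfb, whose product partners the RUNX proteins and strengthens their binding to DNA, rose in females from 72.7 ± 7.90 to 94.1 ± 2.46 CPM (log2 fold change 0.51, SE 0.0829, edgeR adjusted p = 0.00105) and was at 83.8 ± 5.38 and 83.1 ± 19.8 CPM in males (edgeR adjusted p = 0.600).

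Of 9 mineral handling genes, 8 were tested, of which 5 were called lower in each sex and 1 higher in females and 2 in males (median -0.79 and -0.997). Ank, which encodes a pyrophosphate transporter, was at 137 ± 8.48 and 122 ± 10.2 CPM at 2 weeks and 139 ± 6.93 and 133 ± 19.9 CPM at 65 weeks (edgeR adjusted p = 0.172 and 0.177). Slc20a1, a sodium-phosphate cotransporter of many cell types, rose from 122 ± 31.5 to 156 ± 10.2 CPM in females (edgeR adjusted p = 0.0468) and from 90.1 ± 11.9 to 152 ± 36.7 CPM in males (edgeR adjusted p = 0.00842), though its female ranges overlapped. Phospho1, a phosphatase of matrix vesicles, rose in males from 0.767 ± 0.267 to 2.10 ± 0.618 CPM (edgeR adjusted p = 0.0104) and was at 1.19 ± 0.0167 and 1.51 ± 0.712 CPM in females (edgeR adjusted p = 0.303).

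Of 5 osteocyte genes, 4 were tested and 3 were called lower in each sex. Their median log2 fold change was -6.55 and -4.77 as fitted, and -3.94 and -3.69 with the genes at or under the floor in every older library set at their bound. Fgf23, the phosphate-wasting hormone of osteocytes, was at 2.58 ± 0.763 CPM in 2-week females and at 0 counts in all 3 older females, at least 26.4-fold lower by the floor of 3 counts per library. In males it was at 3.79 ± 1.51 and 0.101 ± 0.118 CPM (edgeR adjusted p = 0.000664). Mepe, a matrix phosphoglycoprotein of osteocytes, was at 1.95 ± 0.536 and 1.56 ± 0.330 CPM at 2 weeks and at 0 in 2 of the 3 older libraries of each sex. Of 11 osteoblast receptor genes, 10 were tested and 8 were called lower in each sex (median -2.19 and -2.34). Lrp5, a Wnt coreceptor, fell from 136 ± 25.8 and 149 ± 12.8 CPM to 50.4 ± 4.804 and 48.4 ± 7.11 CPM (edgeR adjusted p = 8.88e-05 and 2.82e-05), and Fgfr2, an FGF receptor, from 113 ± 26.03 and 117 ± 13.3 CPM to 4.79 ± 1.42 and 7.25 ± 1.09 CPM (edgeR adjusted p = 5.06e-06 and 1.47e-06).

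**Figure D4:**
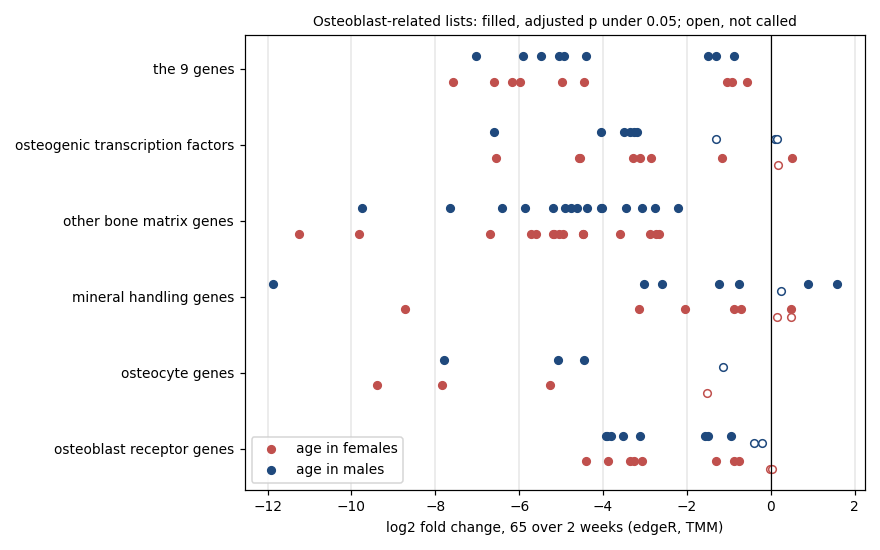
Log2 fold change, 65 over 2 weeks, of each tested gene in the list of the 9 genes and in 5 other osteoblast-related lists, in females and males, with filled points for an edgeR adjusted p under 0.05 and open points, set slightly lower, for genes not called. All 15 tested bone matrix genes and all 9 members lie to the left of 0, and the points to the right of 0 are in the lists of transcription factors, mineral handling genes and, for 1 open point, receptors; points beyond -7 include genes at 0 counts at 65 weeks, whose fitted value depends on the prior count.

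Sexes were compared within each age, male over female. At 2 weeks 0 of the 9 members were called by edgeR (0.0332% of 15081 genes were), and 1, Ibsp, had an unadjusted p under 0.05, as had 2683 genes. Ibsp lay between 147 and 166 CPM in the female libraries and between 186 and 211 CPM in the male libraries, and it was the 1 member of 9 whose ranges did not overlap, as those of 21.7% of tested genes did not. Its log2 fold change was 0.32 (SE 0.0797, 95% interval 0.13 to 0.50) with an edgeR adjusted p = 0.213, and 0.31 with an adjusted p = 0.0307 by DESeq2, so the call depended on the test. The other 8 lay between -0.32 (Bglap, 95% interval -0.85 to 0.22) and 0.19 (Alpl, 95% interval -0.11 to 0.50). Runx2 was at a log2 fold change of -0.03 (95% interval -0.22 to 0.16).

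At 65 weeks 8 members were tested and 0 were called (0.042% of 14287 genes were), with 0 at an unadjusted p under 0.05 against 1479 of all genes, 0 by DESeq2 and 0 without the male library that held Xist counts. Ifitm5 had too few counts to be tested. The ranges of the sexes overlapped for all 9, where 15.5% of tested genes had ranges apart. Intervals were wide for the genes that had nearly gone: that of Sp7 ran from -0.64 to 2.60, that of Dmp1 from -1.73 to 2.77 and that of Bglap2 from -2.07 to 2.98. For Runx2 (-0.77 to 0.11), Alpl (-0.85 to 0.35), Phex (-1.01 to 0.21) and Ibsp (-0.86 to 0.41) they were narrower.

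**Figure D5:**
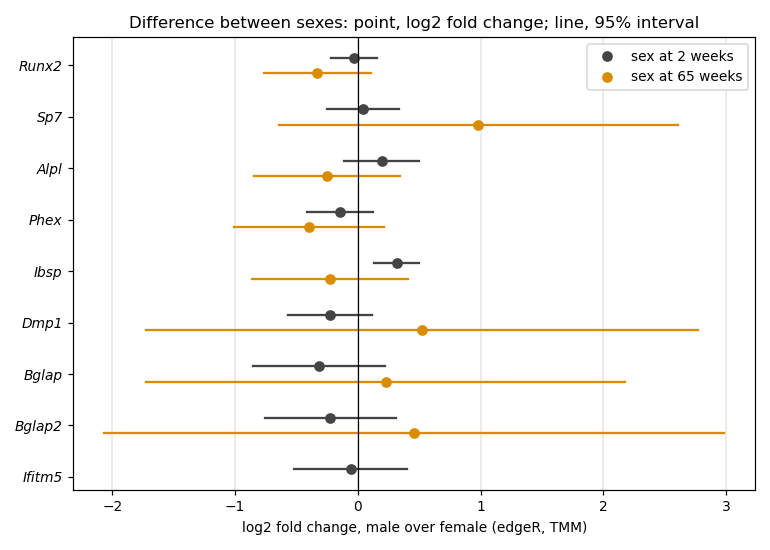
Log2 fold change of each member, male over female, with its 95% interval, from edgeR with TMM scaling, at 2 and 65 weeks (n = 3 libraries per group; Ifitm5 was not tested at 65 weeks). The intervals cross 0 for every member and age except Ibsp at 2 weeks, and those of Sp7, Dmp1, Bglap and Bglap2 are much wider at 65 weeks.

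The interaction asked whether the change with age differed between the sexes. It was called for 0 of the 9 members by edgeR (0.00635% of 15747 genes were), with 0 at an unadjusted p under 0.05 against 1880 of all genes, and for 0 by DESeq2. The largest log2 values, given as the male minus the female change, were 0.94 for Sp7 (95% interval -0.25 to 2.13, edgeR adjusted p = 0.524), 0.69 for Dmp1 (-0.89 to 2.26, edgeR adjusted p = 0.728) and 0.69 for Bglap2 (-1.30 to 2.68, edgeR adjusted p = 0.786). The separate falls of females and males were thus not shown to differ.

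At 2 weeks the highest or lowest value of most members fell in the same library. Replicate 2 of the 2-week females was the highest of its group for 7 of the 9 members and replicate 1 the lowest for 8. Of 13291 other genes with a mean of at least 1 CPM, 49.6% were highest in that replicate 2 and 21.5% lowest in that replicate 1, and of the 15 endothelial markers 14 were highest in replicate 2 and 0 lowest in replicate 1. Among 2-week males replicate 3 was the highest for 8 of 9 members, for 37.5% of the other genes and for 4 of the 15 endothelial markers. At 65 weeks no library was the highest or the lowest for more than 5 of 9.

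The genes whose levels over the 12 libraries were most like the mean of the members were Bmp1, Efna1, Gpc6, Ppic and Islr. The likeness was the root mean square difference of centred log2 CPM, which was 0.204 for Bmp1, a procollagen protease, and 0.221 to 0.234 for the other 4, out of 11558 protein-coding genes searched. Among the members themselves it ran from 0.365 (Alpl) to 1.75 (Runx2), since few members followed the mean. Nearest to Alpl were Bcl6b (0.170) and Fstl1 (0.195), nearest to Runx2 were Mapk8 (0.109) and Nle1 (0.127), nearest to Phex were Lrrc8b (0.202) and mt-Cytb (0.206), and nearest to Ibsp were Serping1 (0.181) and Alg14 (0.186). Sp7 had Col22a1 at 0.272 and Pcdh12 at 0.441, Dmp1 had Rspo3 at 0.373 and Sparcl1 at 0.633, and Ifitm5 had Entrep1 at 0.485 and Vcan at 0.531. For the osteocalcin genes, with few reads at 65 weeks, no gene came closer than 0.670 (Pxdn and then Npnt at 0.732 for Bglap) or 0.732 (Susd4 and then Col12a1 at 0.743 for Bglap2).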

How the data were processed

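The authors deposited 1 table of counts per gene for 12 libraries, not normalised. The methods of the study name STAR on GRCm39 with featureCounts, whereas the submitters' processing notes list TopHat2, HTSeq and mm9. Which of them made the table is not given in the sources used here, nor are the annotation, the strand setting and what was done with reads of several genes. The kit was for total RNA, and the label names polyA RNA.

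Of the 37620 Ensembl IDs, 31052 were named by GENCODE M39 (GRCm39), which also gave gene coordinates and exon lengths. Each comparison was fitted on its 6 libraries, or on all 12 for the interaction, by the quasi-likelihood F test of edgeR 4.0.16 (R 4.3.3) after filterByExpr (minimum count 10) and TMM scaling, with p-values adjusted by Benjamini-Hochberg over all tested genes and a threshold of 0.05. Standard errors came from the F statistic. DESeq2 1.42.0, other scalings and filters, a replicate block, summed osteocalcin genes and leaving out each library were alternatives. The scripts were tested on simulated data. All 9 members were reported. Of each other osteoblast-related list, the 2 genes with the highest mean CPM at 2 weeks and those called against the majority of their list were named, as were the 5 genes most like the mean of the members and the 2 most like each. Cell type markers were given as counts and sums. The members and lists were chosen with earlier results of these data known.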

Additional observations from a re-analysis of the deposited data

How the results depend on the processing

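All 9 members were called lower with age in each sex under DESeq2, RLE scaling, library totals, no filter, a minimum count of 30, 1 model of all libraries and without any 1 library. Over all genes these settings called 7434 to 9271 in females and 6450 to 9564 in males, in either direction, against 9030 and 8298. With the osteocalcin genes summed, 8 of 8 were called, and at a threshold of 0.01, 8 in females (without Ibsp) and 9 in males. That threshold called 6785 and 5969 of all genes. Library totals moved the median log2 fold change of all genes to -0.13 in females and -0.11 in males, and that of the members to -5.12 and -5.06. At the threshold of 0.05 all 250 age values of single members under these alternatives kept their direction and call. Without 1 library, the highest edgeR adjusted p was 0.029, for Ibsp in females.

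Between sexes at 2 weeks the count of members called was 1 by DESeq2 (Ibsp) and 0 otherwise. Over all genes, the count called between sexes at 2 weeks was 447 by DESeq2, 8 with all libraries in 1 model and up to 11 without 1 library, against 5. At 65 weeks it was 399 by DESeq2, 105 with no filter, 10 with library totals, 253 with all libraries in 1 model and, without replicate 3 of the males, 830, against 6. For the interaction it was 394 by DESeq2, 7 with no filter, 0 with the replicate block and 750 without that library, against 1. The direction of small differences between sexes, none of them called, turned for some members when 1 library was left out. Without 1 library, the log2 values ranged at 2 weeks from -0.0689 to 0.0315 for Runx2, -0.0639 to 0.14 for Sp7 and -0.25 to 0.0739 for Ifitm5, at 65 weeks from -0.26 to 0.88 for Bglap, -0.14 to 2.12 for Bglap2 and -0.0448 to 1.46 for Dmp1, and in the interaction from -1.56 to 1.72 for Ifitm5. With all libraries in 1 model that of Runx2 at 2 weeks was 0.00051. The cause was not tested.

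The same replicate numbers in the 4 groups are not said to mark a shared litter or day, and deviations of same-numbered libraries correlated between -0.411 and 0.164 over genes, so they were not treated as pairs. A replicate block left 9 of 9 members called in each sex and 0 in the sex comparisons and interaction. With the block the log2 fold change of Runx2 was -0.56 in females and -0.90 in males, that of Ibsp -1.01 and -1.51 and that of Bglap -7.56 and -7.09, and over all genes it called 8269 in females and 7593 in males.

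Depth limits what can be said of Bglap, Bglap2, Dmp1, Sp7 and Ifitm5 at 65 weeks, where single libraries held from 0 to 27 counts.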
